A study of Homo sapiens with 35 samples.

Results

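The genes described here are 37 genes of the lysosome, taken by symbol from the protein-coding entries of the gene count table. They encode the subunits and accessory proteins of the proton pump that acidifies the lysosome, cathepsins, membrane and signalling proteins, and hydrolases with their cofactors. They are 37 of the 19665 protein-coding entries, and all 37 had at least 1 count, but CTSL (cathepsin L) had only 5 counts over all 35 libraries and is given no fold change. Of the other members, all 36 passed a filter on low counts.

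The lysosome is the compartment in which cells digest proteins, lipids and sugars that arrive from the cell surface or by autophagy. Its proton pump, the V-type ATPase, has a cytosolic V1 sector that hydrolyses ATP and a V0 sector in the membrane through which protons pass, and the acid it makes is what cathepsins and glycosidases need to work. Many genes of the lysosome carry a short E-box-like motif, the CLEAR element, which is bound by the MiT/TFE transcription factors. Myeloma cells make large amounts of secreted protein and rely on the proteasome to degrade misfolded protein, and the lysosome is the other large degradative route of the cell.

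The data are RNA sequencing of RPMI-8226, an established human multiple myeloma (plasma cell tumour) line, before and after a 1 h pulse of 750 nM carfilzomib, an irreversible proteasome inhibitor. The comparison asks how the cells' transcripts changed while they recovered from proteasome inhibition. There were 7 groups of 5 libraries of untreated or recovering cells, day 0 and days 1, 2, 4, 6, 8 and 10 after the pulse, when the drug had been washed out. Untreated cells were collected before the drug, by the methods given for them, although the labels list the treatment there too. Medium was renewed every 48 h, density was readjusted on days 6 and 8, and from day 2 on cells were collected just before a medium change.

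The 5 libraries of a day came from subcultures split from 1 expanded culture, so the spread between them covers culture and library preparation and not separate experiments. The methods give 5 subcultures for RNA sequencing, so libraries of different days may be repeated samples of the same subcultures. The main test treated all 35 libraries as independent. Library totals ranged from 6519392 to 10962890 counts with a median of 7643975. The plasma cell markers fixed for the check of the cell type (SDC1, TNFRSF17, XBP1, IRF4, PRDM1, MZB1, CD38 and SLAMF7) had day means between 13.5 and 652 CPM (counts scaled to a common library size). Of markers of other cell types, the T cell gene CD3D, the monocyte genes CD14 and CSF1R and the fibroblast gene COL1A1 had day means of at most 0.0632, 1.31, 0.585 and 0.855 CPM, and CD163 and COL1A2 had no count. Others were present: day means reached 11.5 CPM for MS4A1 and 4.20 CPM for PAX5 (B cell genes) and 3.64 CPM for CD3E (a T cell gene), and the epithelial genes EPCAM, KRT18 and KRT8 lay at 58.7 to 89.9, 235 to 354 and 13.7 to 37.3 CPM. The part of these transcripts in the results was not tested. In such bulk libraries, fewer cells of a kind and less RNA per cell cannot be told apart.

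Most of these genes stood higher 1 day after the pulse. All later days were compared with the same day 0 libraries, so their values are not independent of each other. On day 1, 24 of 37 members (64.9%) were higher than on day 0 at a Benjamini-Hochberg adjusted p (Q) of at most 0.05, and 8 were lower (21.6%), against 25.4% higher and 27.3% lower among all 17999 genes tested. Past a log2 fold change of 1, 6 members were higher and 4 lower, against 7.27% and 13.2% of all genes. The median log2 fold change of the 36 members with a fold was 0.41, and that of all genes tested was -0.06. Over the 12340 genes that passed the filter on low counts, the median was 0.01. Shares of all genes, here and below, are of the 17999 genes tested. These include genes below the filter, where a change could hardly be detected, whereas all 36 members passed it. Shares over only the genes past the filter were not counted.

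By day 2 the balance had moved, with 17 members higher and 11 lower (all genes 23.2% and 24.4%), 1 of each past a log2 fold change of 1 (6.32% and 8.94%). On day 4, 9 were higher and 9 lower, against 19.0% and 20.1% of all genes. On day 6 the counts were 8 and 6, against 17.5% and 17.0%, and on day 8 they were 8 and 10, against 18.2% and 18.6%. On day 10, 6 members were higher (16.2% of them, all genes 16.1%) and 12 were lower (32.4%, all genes 15.8%). No member passed a log2 fold change of 1 at this Q after day 2, where the shares of all genes higher and lower were 4.12% and 5.29% on day 4, 3.18% and 3.52% on day 6, 3.60% and 4.58% on day 8, and 2.41% and 3.52% on day 10. The members' median log2 fold change went from 0.18 on day 2 through 0.08, 0.03 and -0.01 on days 4, 6 and 8 to -0.05 on day 10.

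**Figure D1:**
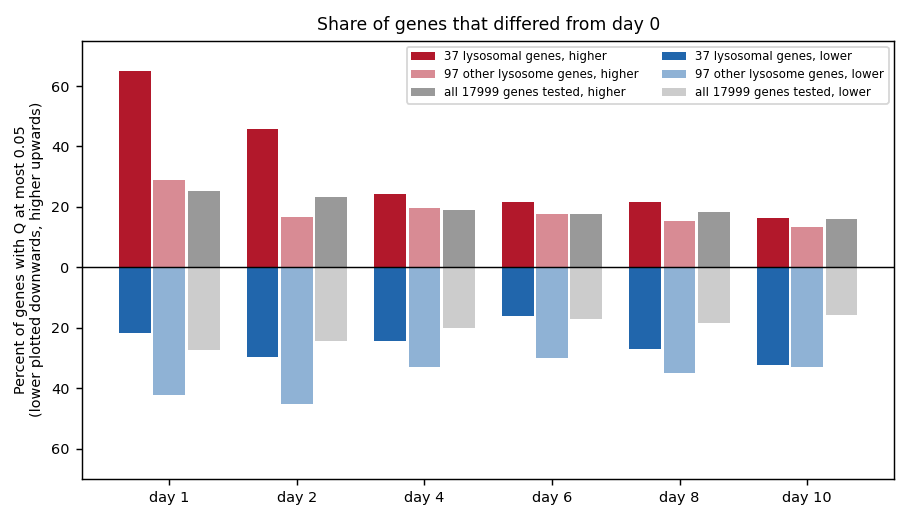
Percent of genes with Q of at most 0.05 against day 0 on each later day, higher plotted upwards and lower downwards, for the 37 lysosomal genes, 97 other lysosome genes and all 17999 genes tested. The share of the 37 genes that was higher fell from 64.9% on day 1 to 16.2% on day 10, while the share that was lower was 21.6% on day 1 and 32.4% on day 10.

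These counts depend on the scaling of the libraries on some days. The 10 most abundant genes took 12.6 to 15.0% of protein-coding counts on day 0 and 8.49 to 9.76% on day 1. With plain library totals in place of TMM factors, the median of all expressed genes moved up by 0.11 (log2) on day 1, 0.13 on day 2 and 0.11 on day 4. Under that scaling 18 members were higher and 6 lower on day 4, and 7 were higher and 8 lower on day 10, while day 1 gave 25 higher and 8 lower. No member change called under TMM factors reversed its sign.

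Promoter sequences from RefSeq (GRCh38.p14, 250 bases before to 50 after a gene's start) were found for 27 of the 37 members. The motif TCACGTG, the E-box core CACGTG with the flanking base of the CLEAR element, was searched on both strands and lay in the promoters of 10 members (37.0%), against 1303 of 35116 promoters in the table (3.71%). Those members were ATP6V0B, ATP6V0D1, ATP6V1G1, CTSA, CTSD, GAA, LAMP1, LAMTOR1, MCOLN1 and NEU1. The shorter core CACGTG, which every TCACGTG contains, lay in the same 10 members and in 7.26% of all promoters. Because many genes of the lysosome are known to carry the CLEAR element, a higher share among the members is no new result. The windows below lie before the RefSeq start, ending next to it except for GAA, where the last 20 bases are left out, and are shown because they hold the motif in genes that moved in opposite ways or did not pass the test. Capitals mark TCACGTG or its reverse complement.
ATP6V0B: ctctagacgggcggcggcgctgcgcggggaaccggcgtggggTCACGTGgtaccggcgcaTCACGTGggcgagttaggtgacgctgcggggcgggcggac
ATP6V0D1: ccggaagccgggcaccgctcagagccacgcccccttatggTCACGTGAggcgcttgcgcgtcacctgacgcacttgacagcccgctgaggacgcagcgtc
CTSD: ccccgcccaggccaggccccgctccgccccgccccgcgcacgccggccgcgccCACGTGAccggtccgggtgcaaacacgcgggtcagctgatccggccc
MCOLN1: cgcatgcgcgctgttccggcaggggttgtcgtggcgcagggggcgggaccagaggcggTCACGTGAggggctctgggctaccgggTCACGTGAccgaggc
LAMP1: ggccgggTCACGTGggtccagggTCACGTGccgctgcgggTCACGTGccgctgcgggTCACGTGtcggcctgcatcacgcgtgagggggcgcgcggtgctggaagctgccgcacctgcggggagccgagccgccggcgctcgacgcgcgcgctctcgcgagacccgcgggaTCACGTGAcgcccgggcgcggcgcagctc
GAA: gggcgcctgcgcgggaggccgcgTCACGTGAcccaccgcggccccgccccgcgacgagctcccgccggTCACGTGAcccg

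The windows are chr1:43974860-43974959 (plus strand) for ATP6V0B, chr16:67481158-67481257 (minus strand) for ATP6V0D1, chr11:1763928-1764027 (minus strand) for CTSD, chr19:7522524-7522623 (plus strand) for MCOLN1, chr13:113297039-113297238 (plus strand) for LAMP1 and chr17:80101481-80101560 (plus strand) for GAA. On day 1, 7 of the 10 members with TCACGTG were higher than on day 0, GAA was lower, and LAMP1 and ATP6V1G1 did not pass the test. Of the 17 matched members without it, 9 were higher, 5 lower and 3 not called, among them the scarce CTSL. Among all genes tested, 25.4% were higher and 27.3% lower. LAMP1, whose promoter entry held 6 matches, of which 5 lie in the window shown and the other runs across the start, had a log2 fold change of 0.06 on day 1, while CTSD, with 1 match, had 1.64. The antioxidant response motif was TGAC then any 3 bases then GC on either strand. It lay in promoters of 14 of the 27 matched members (51.9%), and in 13.3% of all promoters. Shares of members count a match in any entry of a gene, and ATP6V0C, ATP6V1E1 and NPC2 had more than 1 entry. Shares of all promoters count single entries, so the units differ. Of those 14 members, 9 were higher on day 1, 2 lower and 3 not called, among them CTSL, whose counts were too low for a call. Of the 13 matched members without it, 7 were higher, 4 lower and 2 not called. GENCODE also lists transcripts of ATP6V0B, ATP6V0D1, CTSD and GAA that start within these windows or upstream of them. A match of letters shows neither that a factor binds there nor why a transcript changed.

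In the V0 sector, the membrane ring of the pump, 5 of 6 genes were higher on day 1 and none was lower (all genes 25.4% and 27.3%). Their median log2 fold change was 0.60. ATP6V0E1, a small subunit of the membrane sector (chr5:172983771-173035445), read 76.6, 73.3, 65.6, 84.0 and 67.6 CPM in the day 0 libraries and 165, 167, 174, 177 and 164 CPM in those of day 1. All day 1 libraries lay above all day 0 libraries, and the log2 fold change was 1.21 ± 0.07 (SE, Q = 5.3e-19). On day 2 it was back at 73.6 ± 2.70 CPM (SD, n = 5) against 73.4 ± 7.37 on day 0, and on day 10 it was lower, at 57.9 ± 4.94 CPM (log2 fold change -0.34 ± 0.07, Q = 0.000179).

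ATP6V0D1, the subunit that joins the membrane ring to the central stalk (chr16:67438014-67481181), gave 67.1, 64.9, 51.1, 70.9 and 70.6 CPM on day 0 and 140, 140, 137, 150 and 133 CPM on day 1. The groups did not overlap, with a log2 fold change of 1.11 ± 0.07 (Q = 4.16e-17). It was still higher on day 2, at 90.7, 94.5, 85.4, 85.3 and 79.1 CPM, and its day 10 mean of 67.7 CPM differed from day 0 by a log2 fold change of 0.06 (Q = 0.578).

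ATP6V0B, a proteolipid of the ring, given because it had the most counts of the V0 genes (chr1:43974487-43978295), read 221, 216, 184, 213 and 184 CPM on day 0. Its day 1 libraries read 310, 316, 300, 384 and 298 CPM, all above day 0 (log2 fold change 0.66 ± 0.08, Q = 8.88e-10). On day 2 it stood at 279, 337, 287, 271 and 282 CPM, and by day 4 its mean of 220 CPM no longer passed the test against day 0 (Q = 0.268). ATP6V0C, the other main proteolipid, rose from 161 ± 15.6 to 207 ± 15.2 CPM on day 1. In the GENCODE release used here 60.9% of its exonic bases are shared with a readthrough gene on the same strand, and how those reads were divided is an estimate of the quantifier.

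The pump has several genes for its large membrane subunit a, through which protons pass. ATP6V0A1 was at 185, 166, 169, 167 and 174 CPM on day 0, rose to 264, 250, 253, 252 and 245 CPM on day 1 and stood at 92.3, 94.9, 92.2, 103 and 97.2 CPM on day 2. The day 1 libraries were all above and the day 2 libraries all below those of day 0, with log2 fold changes of 0.55 ± 0.05 (Q = 3.29e-12) and -0.85 ± 0.05 (Q = 2.96e-17). It stayed lower than day 0 through day 10, when it read 144 ± 7.73 CPM (log2 fold change -0.27 ± 0.05, Q = 8.71e-05).

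TCIRG1, an a-subunit gene outside the 37 that is best known from osteoclasts and immune cells, took the other course. It read 179, 170, 172, 134 and 149 CPM on day 0, 163, 134, 108, 119 and 127 CPM on day 1, and 221, 228, 240, 239 and 244 CPM on day 2. Its log2 fold change was -0.31 ± 0.09 on day 1 (Q = 0.00333), a call lost with plain library totals (-0.19, Q = 0.0862) and with counts of all transcript types summed (-0.07, Q = 0.397), and 0.54 ± 0.09 on day 2 (Q = 1.19e-06).

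Within a library, the log2 ratio of ATP6V0A1 to TCIRG1 counts was -0.03 to 0.32 on day 0, 0.69 to 1.23 on day 1 and -1.38 to -1.21 on day 2. By day 10 it was -0.54 to -0.35, below every day 0 library. The ratio compares counts without a length correction, so its movement between days and not its sign is what it measures. ATP6V0A2, another gene of this kind, associated with the Golgi, was at 21.7 ± 1.40 CPM on day 0 and was not called on days 1 and 2, but was lower on day 4 (12.5 ± 3.23 CPM, log2 fold change -0.80 ± 0.15).

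**Figure D2:**
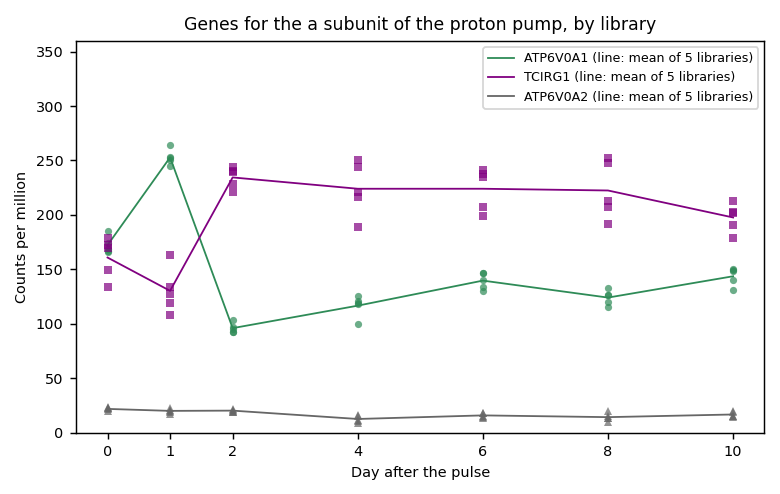
CPM of 3 genes for the a subunit of the proton pump against the day after the pulse; points are the 5 libraries of a day and lines join day means. ATP6V0A1 peaked at a mean of 253 CPM on day 1 and lay at 96.0 CPM on day 2, whereas TCIRG1 went from 130 to 234 CPM between these days.

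The V1 sector, the cytosolic motor of the pump, moved as broadly: 7 of its 8 genes were higher on day 1 and none was lower. Of all genes, 25.4% were higher and 27.3% lower. The median log2 fold change of the V1 genes was 0.64. ATP6V1A, the catalytic subunit that hydrolyses ATP (chr3:113746770-113812056), had 63.4, 63.6, 65.1, 63.9 and 59.3 CPM on day 0 and 305, 283, 324, 313 and 289 CPM on day 1. The libraries did not overlap, and the level was 4.80-fold higher (log2 fold change 2.26 ± 0.05, Q = 2.8e-31). ATP6V1A was also higher on every later day, with 115, 109, 112, 114 and 114 CPM on day 2 and 75.1, 82.1, 81.6, 84.7 and 88.5 CPM on day 10 (log2 fold change 0.39 ± 0.06, Q = 4.42e-07).

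ATP6V1D, a subunit of the rotating stalk (chr14:67294371-67360265), gave 16.5, 16.8, 15.0, 14.0 and 20.6 CPM on day 0 and 36.3, 38.2, 39.1, 38.1 and 42.4 CPM on day 1. The log2 fold change was 1.23 ± 0.10 (Q = 2e-13). It remained higher through day 8 and was at 17.7 ± 1.88 CPM on day 10 (Q = 0.6). Of the other V1 subunits, ATP6V1F, a small stalk subunit, had a day 1 log2 fold change of 0.98, ATP6V1C1, which links stator and head, of 0.73, ATP6V1E1, of the stator, of 0.56, ATP6V1H, a regulatory subunit, of 0.55, and ATP6V1B2, the non-catalytic partner of ATP6V1A, of 0.53.

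The exception was ATP6V1G1, a stator subunit, at 97.2 ± 4.73 CPM on day 0 and 97.0 ± 8.45 CPM on day 1. Its day 2 level was lower, at 78.0 ± 3.02 CPM (log2 fold change -0.32 ± 0.07, Q = 0.000201). From day 1 to day 2 all 8 V1 genes fell (all genes 19.4%), with a median log2 change of -0.41. On day 10 only ATP6V1A among the V1 genes differed from day 0, while in the V0 sector ATP6V0A1, ATP6V0A2 and ATP6V0E1 were lower and no gene was higher. Of all genes, 16.1% were higher and 15.8% lower on day 10.

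Of the pump's accessory proteins, neither was higher on day 1 (all genes 25.4%). ATP6AP1, which helps to assemble the pump (chrX:154428633-154436516), read 210, 193, 169, 210 and 210 CPM on day 0 and 125, 134, 141, 142 and 125 CPM on day 1, all below day 0 (log2 fold change -0.57 ± 0.06, Q = 5.89e-11). It was at 171 ± 8.62 CPM on day 2 and at 199 ± 7.63 CPM on day 10. For ATP6AP2, the prorenin receptor, protein-coding transcripts held 54.1% of all counts, and the day 1 log2 fold change was -0.12 ± 0.14 (Q = 0.484). With all its transcript types summed it was 0.18 (Q = 0.0107), since transcripts annotated for nonsense-mediated decay stood at a mean of 92.3 CPM on day 0 and 124 CPM on day 1.

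**Figure D3:**
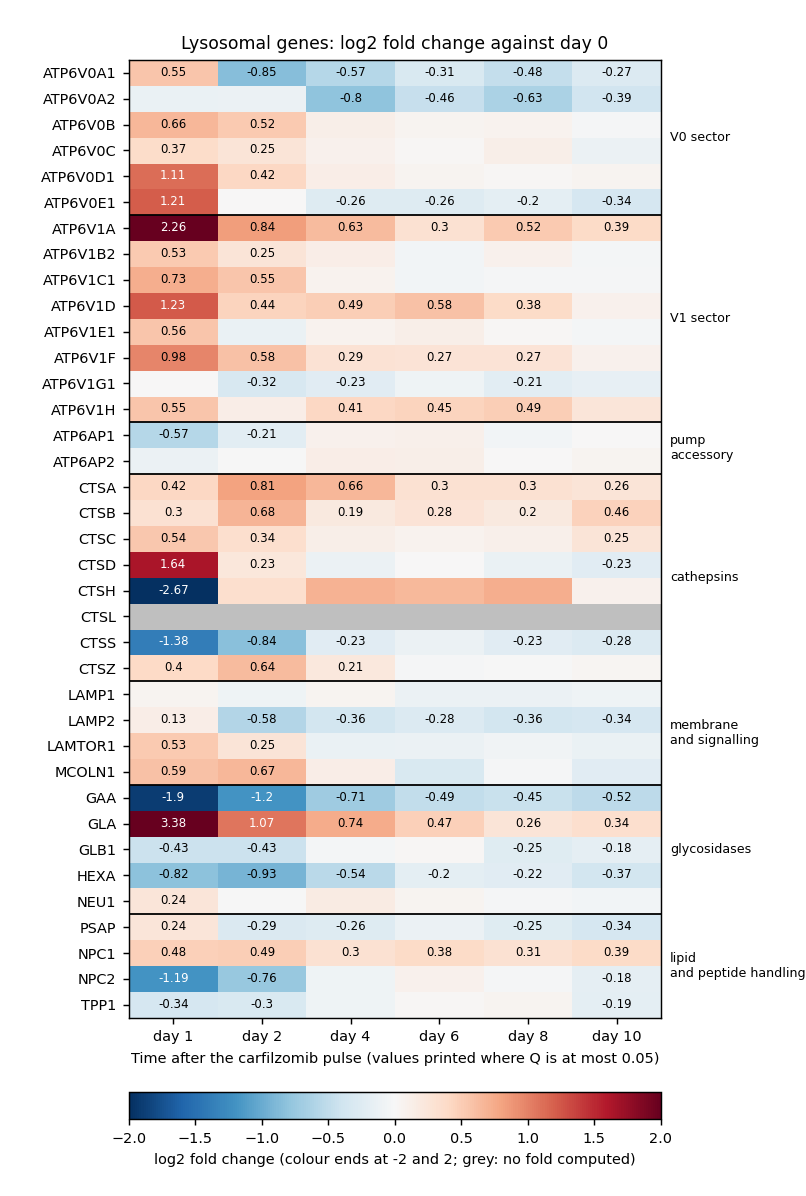
Log2 fold change of each of the 37 genes (rows, by group) on each day against day 0 (columns); colour runs from blue (lower) to red (higher) and ends at -2 and 2, values are printed where Q is at most 0.05, and CTSL in grey has no fold. Red fills most of the V0 and V1 rows on day 1, with 12 of those 14 genes called higher (all genes 25.4%). GLA at 3.38 and CTSH at -2.67 are the extremes.

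The cathepsins divided. On day 1, 5 of 8 were higher and 2 lower (all genes 25.4% and 27.3%), and CTSL was not called. CTSD, the main aspartic protease of the lysosome (chr11:1752752-1764573), read 250, 246, 205, 247 and 243 CPM on day 0 and 737, 742, 721, 789 and 718 CPM on day 1. The 3.11-fold difference (log2 fold change 1.64 ± 0.06, Q = 1.26e-25) had shrunk by day 2, at 296, 293, 271, 271 and 271 CPM, and on day 10 CTSD was lower than on day 0, at 204 ± 7.54 CPM (log2 fold change -0.23 ± 0.06, Q = 0.00223). Annotated genes on the opposite and on the same strand overlap 23.4% and 22.9% of its exonic bases.

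CTSB, a cysteine protease with the most counts of the cathepsins, rose more slowly. It was at 604, 584, 550, 606 and 605 CPM on day 0, at 698, 716, 723, 783 and 715 CPM on day 1 and at 954, 982, 971, 890 and 944 CPM on day 2. The log2 fold change was 0.30 ± 0.07 on day 1 (Q = 0.00022) and 0.68 ± 0.07 on day 2 (Q = 1.97e-11). CTSB was higher on all 6 later days, and on day 10 read 795, 826, 815, 728 and 890 CPM, 1.37-fold above day 0 and again outside its range.

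CTSA, a carboxypeptidase that also protects other hydrolases, had the same order of days, with 48.5 ± 4.23, 64.9 ± 3.82 and 84.9 ± 5.10 CPM on days 0, 1 and 2, and was also higher on all 6 days. CTSZ, another carboxypeptidase, likewise had its highest mean on day 2 (139 ± 8.13 CPM, day 0 89.5 ± 9.13), with 31.7% of its exonic bases overlapped by the opposite-strand gene NELFCD. CTSC, which activates proteases of granules, was at 182 ± 4.77 CPM on day 1 against 125 ± 8.09 on day 0 (log2 fold change 0.54 ± 0.05).

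CTSS, the cathepsin of antigen presentation, moved the other way (chr1:150730079-150765957). Its libraries gave 338, 336, 352, 361 and 351 CPM on day 0, 130, 135, 144, 131 and 129 CPM on day 1 and 187, 209, 203, 177 and 196 CPM on day 2. Day 1 was 2.60-fold lower (log2 fold change -1.38 ± 0.05, Q = 2.66e-24), and day 10, at 276, 286, 315, 285 and 266 CPM, still lay below every day 0 library (log2 fold change -0.28 ± 0.05, Q = 2.38e-05).

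CTSH, an aminopeptidase, was scarce. Its protein-coding entry read 0.844, 2.54, 1.25, 2.20 and 3.08 CPM on day 0 and 0.882, 0, 0.169, 0.343 and 0 CPM on day 1, from 56 and 9 counts in all. The log2 fold change was -2.67 ± 0.56 (Q = 7.45e-05) although the ranges touched, and protein-coding transcripts held 32.0% of the gene's counts. On the later days its means were 2.04 to 3.25 CPM and it was not called.

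Among the membrane and signalling proteins, 3 of 4 were higher on day 1 (all genes 25.4%). LAMP2, a glycoprotein of the lysosomal membrane that serves in autophagy (chrX:120426148-120469365), had 212, 216, 200, 223 and 204 CPM on day 0 and 217, 222, 249, 240 and 225 CPM on day 1. These ranges overlapped, and the log2 fold change of 0.13 ± 0.05 (Q = 0.0288) lost its call with RLE factors (0.10), after a filter on low counts (0.09), with DESeq2 (0.10) and without any 1 of 7 libraries. On day 2 LAMP2 was lower, at 129, 147, 144, 137 and 147 CPM (log2 fold change -0.58 ± 0.05, Q = 2.52e-13), and it stayed lower through day 10, at 164, 168, 180, 161 and 161 CPM.

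LAMP1, its close relative, was at 137 ± 8.46 CPM on day 0 and 143 ± 2.26 CPM on day 1 (Q = 0.379), and its day means from day 1 on were 126 to 143 CPM with no call on any day. MCOLN1, the calcium channel of the lysosome, had 10.2 ± 1.26 CPM on day 0. It reached 15.3 ± 2.35 CPM on day 1 and 16.2 ± 2.78 CPM on day 2, log2 fold changes of 0.59 ± 0.16 and 0.67 ± 0.16. LAMTOR1, the anchor of the Ragulator complex that recruits mTORC1, went from 28.7 ± 1.76 to 41.6 ± 5.77 CPM on day 1 (log2 fold change 0.53 ± 0.09, Q = 6.02e-06).

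The 5 glycosidases parted, with 2 higher and 3 lower on day 1 (all genes 25.4% and 27.3%). GLA, alpha-galactosidase A, which removes galactose from glycolipids (chrX:101393273-101408012), gave 24.2, 24.6, 27.5, 26.1 and 28.7 CPM on day 0 and 273, 268, 260, 297 and 260 CPM on day 1. It was 10.4-fold higher, the largest rise of the 37 genes (log2 fold change 3.38 ± 0.07, Q = 1.05e-32). On day 2 GLA stood at 55.3, 51.3, 53.1, 64.2 and 51.9 CPM, and it was still higher on day 10, at 31.3, 34.5, 33.4, 33.2 and 32.6 CPM (log2 fold change 0.34 ± 0.08, Q = 0.00107). The opposite-strand gene RPL36A overlaps 8.99% of its exonic bases.

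GAA, the acid alpha-glucosidase that degrades glycogen (chr17:80101533-80119881), read 158, 161, 142, 141 and 151 CPM on day 0 and 39.4, 45.8, 38.4, 33.1 and 45.5 CPM on day 1. It was 3.73-fold lower (log2 fold change -1.90 ± 0.08, Q = 1.22e-23). Its level then climbed, with means of 65.3, 92.0 and 108 CPM on days 2, 4 and 6, but at 114, 105, 105, 105 and 96.7 CPM on day 10 every library was below those of day 0 (log2 fold change -0.52 ± 0.07, Q = 1.08e-07).

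HEXA, the alpha chain of beta-hexosaminidase, which degrades gangliosides (chr15:72340924-72376420), had 242, 223, 226, 237 and 238 CPM on day 0. It was at 130, 139, 131, 141 and 120 CPM on day 1 and 120, 132, 139, 106 and 111 CPM on day 2, with log2 fold changes of -0.82 ± 0.06 (Q = 1.17e-14) and -0.93 ± 0.06 (Q = 2.84e-16). HEXA and GAA were the members lower on all 6 later days, and HEXA read 176, 185, 194, 179 and 171 CPM on day 10.

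GLB1, the beta-galactosidase, was lower on days 1 and 2, with a mean of 94.5 CPM on each against 127 ± 12.2 on day 0 (log2 fold change -0.43 ± 0.07 on day 1, Q = 1.57e-06). NEU1, the sialidase, had a day 1 log2 fold change of 0.24 ± 0.07 (Q = 0.00445), which missed the threshold with all transcript types summed (0.14, Q = 0.051).

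**Figure D4:**
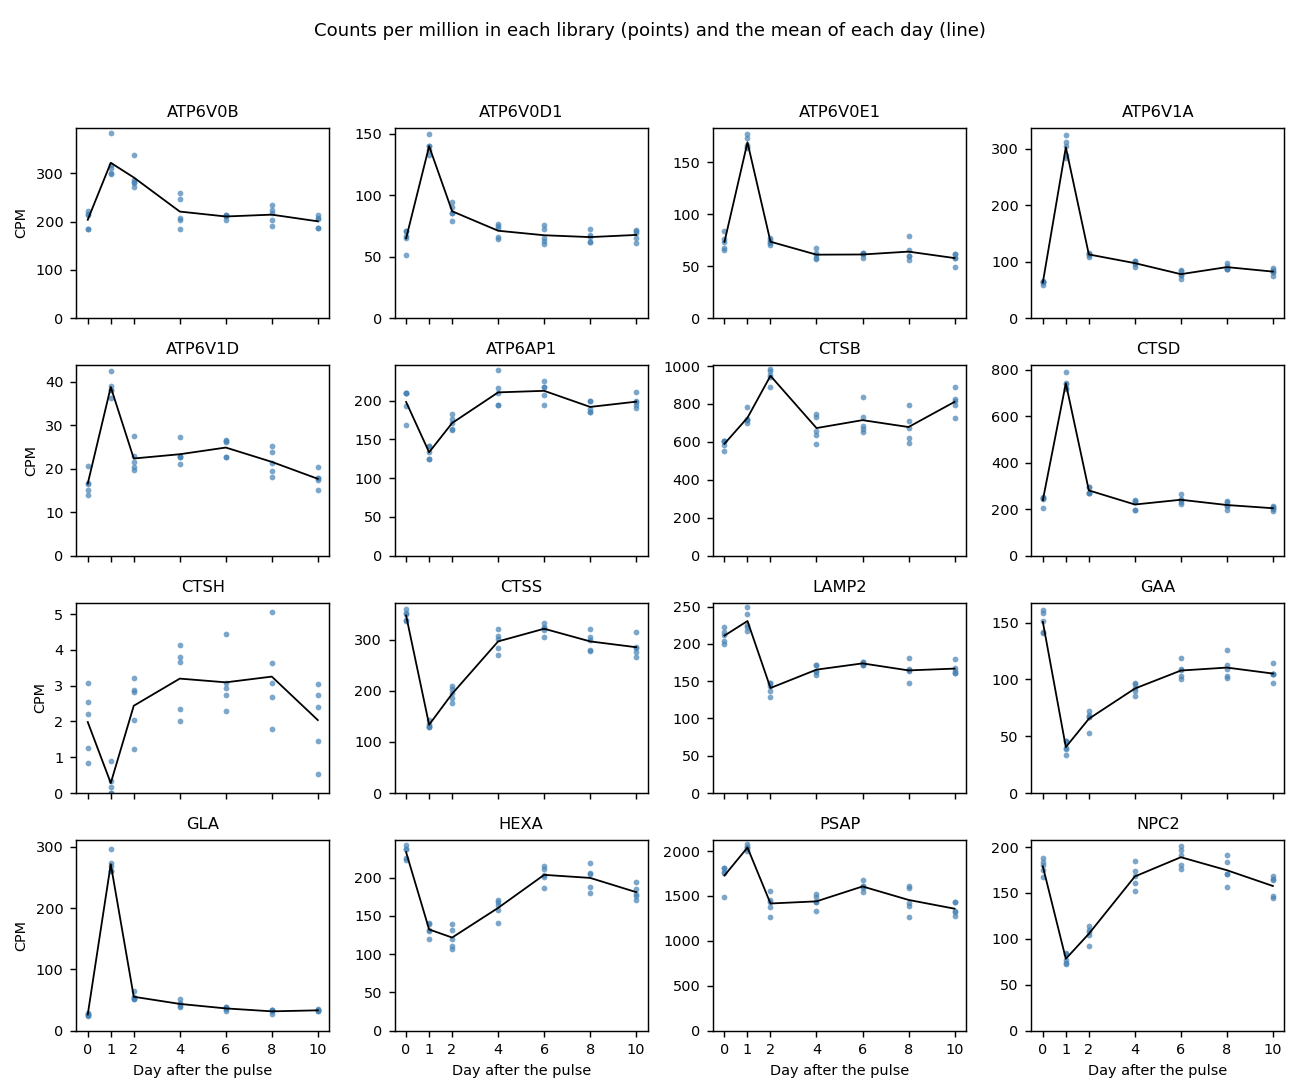
CPM of 16 of the genes in each of the 35 libraries (points) against the day after the pulse, with a line through the day means; each panel has its own axis from 0. ATP6V0D1, ATP6V0E1, ATP6V1A, ATP6V1D, CTSD and GLA peak on day 1, CTSS, GAA and NPC2 have their lowest mean there, and CTSB peaks on day 2.

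Of the 4 genes for lipid and peptide handling, 2 were higher and 2 lower on day 1 (all genes 25.4% and 27.3%). PSAP, the precursor of the saposins that present lipids to hydrolases (chr10:71816298-71851251), read 1810, 1760, 1490, 1770 and 1810 CPM on day 0 and 2000, 2050, 2050, 2080 and 2020 CPM on day 1 (log2 fold change 0.24 ± 0.06, Q = 0.000421). PSAP then went below day 0: on day 10 its libraries read 1330, 1430, 1430, 1320 and 1280 CPM, all under the day 0 range (log2 fold change -0.34 ± 0.06, Q = 5.5e-06).

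NPC1 and NPC2 pass cholesterol out of the lysosome, NPC1 in the membrane and NPC2 in the lumen, and their transcripts parted. NPC1 was higher on all 6 later days, at 103 ± 5.91 CPM on day 0, 144 ± 4.26 on day 1 and 135 ± 8.21 on day 10. NPC2 (chr14:74476192-74494177) read 184, 181, 175, 188 and 167 CPM on day 0 and 77.2, 84.4, 72.3, 83.0 and 74.1 CPM on day 1, a non-overlapping fall to a log2 fold change of -1.19 ± 0.06 (Q = 9.92e-20). NPC2 had 110, 114, 104, 92.4 and 107 CPM on day 2 and was not called against day 0 on day 4, at 168 ± 12.7 CPM (Q = 0.267), nor on days 6 and 8. On day 10 NPC2 was lower again, at 158 ± 11.1 CPM (log2 fold change -0.18 ± 0.06, Q = 0.0181), a call lost without some single libraries. TPP1, a tripeptidyl peptidase, was at 153 ± 6.32 CPM on day 1 against 194 ± 25.9 on day 0 (log2 fold change -0.34 ± 0.07, Q = 7.46e-05).

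Steps between neighbouring days show when the genes turned. From day 1 to day 2, 8 members rose and 19 fell, against 20.2% and 19.4% of all genes tested. GLA had the largest fall, by 2.30 on the log2 scale, followed by ATP6V1A (1.43), ATP6V0A1 (1.40), CTSD (1.40) and ATP6V0E1 (1.20). Over the same step CTSH, GAA, CTSS, NPC2, CTSA, CTSB, ATP6AP1 and CTSZ were the 8 that rose.

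From day 2 to day 4, 10 rose and 15 fell (all genes 13.9% and 16.7%). From day 4 to day 6 the counts were 3 and 4 (6.09% and 5.98%), from day 6 to day 8 they were 1 and 1 (1.03% and 1.53%), and from day 8 to day 10 they were 2 and 2 (5.08% and 4.97%). The members that differed between days 6 and 8 were ATP6V1A (higher, log2 change 0.21) and GLB1 (lower, -0.27).

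Across all days, 20 of the 36 members had their highest mean on day 1 and 10 had their lowest on day 0. ATP6V1A, CTSA, CTSB, GLA and NPC1 were the 5 members higher on each of the 6 later days. ATP6V0A1, ATP6V0E1, CTSD, LAMP2 and PSAP were each called higher on day 1 and lower on day 10, while 12 members were called on both days in the same direction and 15 were called on day 1 but not on day 10. ATP6AP2, CTSL and LAMP1 were called on no day. These patterns were counted for the members only, without the shares of all genes, so they do not set the members apart from other genes.

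Levels of different genes were compared as CPM per kb of the Ensembl canonical transcript. On day 0, PSAP had the highest level at 630 ± 48.4 CPM per kb (SD, n = 5), followed by NPC2 at 218 ± 9.94, ATP6V0B at 207 ± 18.0, CTSB at 158 ± 6.43 and ATP6V0C at 147 ± 14.3. NPC2 and ATP6V0B differed by less than the SD of ATP6V0B, though by more than that of NPC2. CTSB and ATP6V0C differed by less than the SD of ATP6V0C, though by more than that of CTSB. On day 1 CTSD, at 361 CPM per kb, and ATP6V0B, at 325, came after PSAP at 742, and GLA at 206 stood near ATP6V1F at 215, having been at 19.9 on day 0. These levels depend on the chosen transcript: with the longest protein-coding transcript NPC2 would be at 125, ATP6V0B at 121 and CTSB at 141 CPM per kb, all below ATP6V0C at 147, so the order after PSAP is not fixed. CTSZ would be at 8.25 and not 59.6 CPM per kb.

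**Figure D5:**
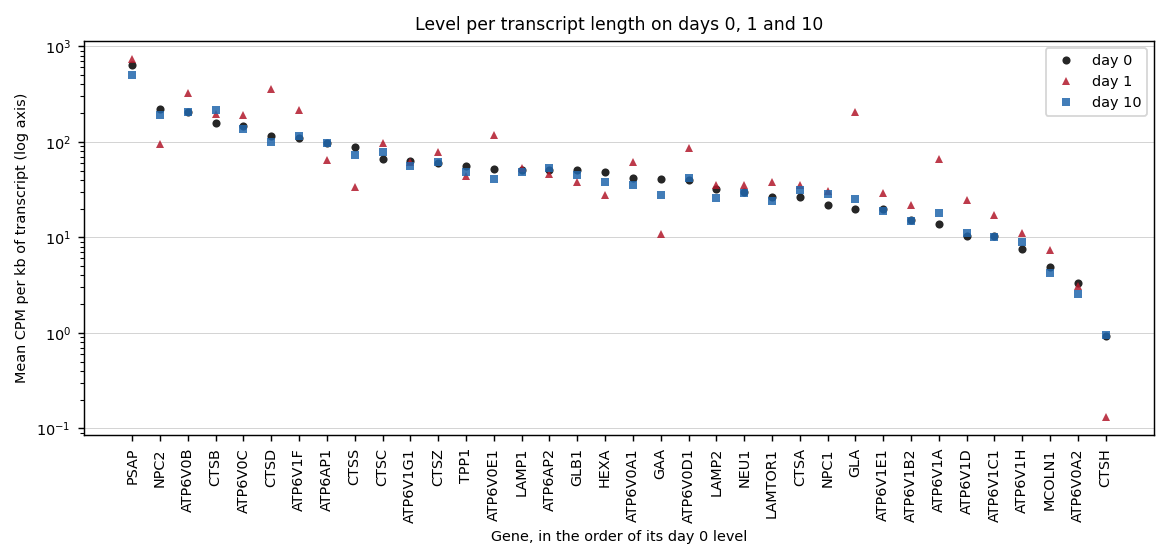
Mean CPM per kb of canonical transcript (log axis) of the 36 genes with a usable count on days 0, 1 and 10, ordered by the day 0 level. PSAP is highest on each of these days, at 630, 742 and 495 CPM per kb, and the day 1 mark of GLA (206) lies about a decade above its day 0 mark (19.9).

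Other genes of the lysosome are given for comparison. On day 1, 28 of 97 other lysosome genes with a count were higher and 41 lower (28.9% and 42.3%, all genes 25.4% and 27.3%). The counts were 16 and 44 on day 2 (16.5% and 45.4%, all genes 23.2% and 24.4%). They were 19 and 32 on day 4 (19.6% and 33.0%, all genes 19.0% and 20.1%). Day 6 gave 17 and 29 (17.5% and 29.9%, all genes 17.5% and 17.0%). Day 8 gave 15 and 34 (15.5% and 35.1%, all genes 18.2% and 18.6%). Day 10 gave 13 and 32 (13.4% and 33.0%, all genes 16.1% and 15.8%). With plain library totals these were 25 and 37 on day 2, 28 and 27 on day 4, and 21 and 30 on day 8. Their median log2 fold change on day 1 was -0.15. The difference between the lists was not tested.

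Among other cathepsins, 3 of 6 were lower on day 1 and none was higher (all genes 27.3% and 25.4%). But the other 3, CTSE, CTSV and CTSW, had day means of at most 0.0653, 0.779 and 0.198 CPM, levels at which a change could hardly be detected. CTSF, a cysteine cathepsin, was at 51.9 CPM on day 0 and 8.68 CPM on day 1 (log2 fold change -2.58 ± 0.11, Q = 3.36e-23), CTSK, the collagen-degrading cathepsin of osteoclasts, at 8.56 and 1.62 CPM (-2.37 ± 0.27, Q = 4.62e-10), and CTSO at 40.3 and 8.18 CPM (-2.29 ± 0.12, Q = 2.53e-20). CTSF and CTSO were lower on every later day too. Of the 4 cystatins, inhibitors of cysteine proteases, 3 were lower and 1 was higher on day 1 (all genes 27.3% and 25.4%). CSTA and CST7, among the lower, were scarce, with day 0 means of 1.93 and 1.78 CPM.

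Alternative pump subunits were mostly lower or not called. Of 8 with a count, 4 were lower on day 1 and only ATP6V0E2 was higher (all genes 27.3% and 25.4%). The 3 not called, ATP6V0A4, ATP6V0D2 and ATP6V1B1, had day means of at most 0.144, 0.72 and 0.107 CPM. A change could hardly be detected at such levels. ATP6V0E2, the other gene for the small subunit that ATP6V0E1 encodes, was at 6.54 CPM on day 0 and 39.1 CPM on day 1 (log2 fold change 2.59 ± 0.14, Q = 3.72e-19). Of the 32 other hydrolases and cofactors, 11 were higher and 14 lower on day 1 (34.4% and 43.8%, all genes 25.4% and 27.3%). SCPEP1, a serine carboxypeptidase, stood at 87.3 CPM on day 0 and 255 CPM on day 1 (log2 fold change 1.54 ± 0.07). IDUA, which degrades glycosaminoglycans, fell to a log2 fold change of -2.04 ± 0.14.

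The lysosomal membrane protein LAMP3 was at 60.2 CPM on day 0, at 9.34 CPM on day 1 (log2 fold change -2.69 ± 0.11, Q = 4.24e-24) and still at 19.0 CPM on day 10. Over its group, 4 of 18 other lysosomal membrane proteins were higher on day 1 and 9 lower (22.2% and 50%, all genes 25.4% and 27.3%). SORT1, a sorting receptor for hydrolases, was at 66.7 CPM on day 0 and 18.0 CPM on day 1 (log2 fold change -1.90 ± 0.08).

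Of 8 MiT/TFE factors and regulators, whose factors bind CLEAR elements, 3 were higher and 3 lower on day 1 (all genes 25.4% and 27.3%). TFEB was at 4.96 CPM on day 0 and 10.1 CPM on day 1 (log2 fold change 1.01 ± 0.17, Q = 2.71e-06), MITF at 13.2 and 21.3 CPM (0.69 ± 0.14, Q = 3.1e-05), and TFE3 at 67.5 and 76.8 CPM (0.18 ± 0.12, Q = 0.22). FLCN, which holds TFEB and TFE3 in the cytosol, had a log2 fold change of -0.05 ± 0.13 on day 1 (Q = 0.803). TFEC, a relative, was at 149 CPM on day 0 and 42.3 CPM on day 1 (-1.82 ± 0.09, Q = 2.27e-20). These are transcript levels, and the activity of the factors, which is set largely by their location in the cell, was not measured here.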

How the data were processed

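Total RNA of 35 RPMI-8226 samples (7 days, 5 libraries a day) was sequenced with a directional kit as 75-base read pairs. The authors quantified reads against GENCODE transcripts (GRCh38.p12) with kallisto 0.44.0, with correction for GC content, and summed transcripts to genes with tximport, with an adjustment for gene length. The deposited table holds these estimated counts, unnormalized and already whole numbers, 1 row per gene symbol and transcript biotype. The submitters' processing notes also name R 3.5.0 and DESeq2 1.25.8. Whether strand was used in counting is not given in the sources used here, so reads of overlapping genes on opposite strands may be divided wrongly, and the division of counts among biotypes is itself an estimate.

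The protein_coding rows were analysed, 17999 of 19665 with a count. Counts were scaled with TMM factors (0.929 to 1.08) and tested with edgeR 4.0.16 (R 4.3.3, limma 3.58.1) by glmQLFit and glmQLFTest, with day as a factor over all 35 libraries. P-values were adjusted by Benjamini-Hochberg over all 17999 genes, and Q of at most 0.05 was called higher or lower, with an absolute log2 fold change above 1 as a stricter rule. CPM values use the TMM-scaled library totals, and fold changes a prior count of 0.125. DESeq2 1.42.0 was an alternative. The scripts were tested on simulated data. Library totals set the precision, and an observed 0 in a library leaves room for an expected count of up to 3.

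The 37 members and all gene lists were chosen with earlier results of these data known. Members past Q of 0.05 and an absolute log2 fold change above 1 on any day, and the member with the highest CPM of each group, are given in every library where the text turns on them. Outside the members, TFEB, TFE3, MITF, FLCN, TCIRG1 and the 10 genes with the largest changes past the stricter rule on day 1 or 10 are named, except where an item is not reported here. Positions, transcript lengths and overlaps are from GENCODE release 44 (GRCh38) and promoters from RefSeq. The replicate numbers were checked for pairing: over 105 pairs of same-numbered libraries, deviations from the day means correlated between -0.12 and 0.14. Numbers were not treated as pairs in the main test, though such weak correlations do not exclude pairing.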

Additional observations from a re-analysis of the deposited data

Results flagged for a closer look

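Within each day, a library was singled out where its distance to the nearest of the other 4, divided by the range of the 5, passed Dixon's 95% critical value of 0.71. Of 252 sets of 5 libraries (36 genes on 7 days), 14 passed, which is 5.56%, and chance alone gives about 1 in 20. Their CPM values follow, each with the nearest other library.

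On day 0, CTSD read 205 CPM in replicate 3 (nearest 243), PSAP 1490 in replicate 3 (1760), ATP6V1A 59.3 in replicate 5 (63.4) and ATP6V1H 19.5 in replicate 2 (15.7). CTSD and PSAP in replicate 3 were the lowest of their day, and the day 1 calls of both genes held without that library. On day 1, ATP6V0B read 384 CPM (316) and CTSZ 138 (115), both highest and both in replicate 4, and LAMP1 139 in replicate 5 (143).

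On day 2, ATP6V0B read 337 CPM in replicate 2 (287) and GAA 52.4 in replicate 4 (66.7). On day 4, ATP6V0A1 read 99.9 CPM in replicate 2 (118). On day 6, ATP6V0B read 203 CPM in replicate 1 (211) and ATP6V0C 185 in replicate 2 (163). On day 10, ATP6V0C read 139 CPM in replicate 1 (149) and CTSC 167 in replicate 3 (146).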

How the results depend on the processing

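Members were also counted with RLE factors, with plain library totals, after a filter on low counts, with the replicate block, with only the libraries of the 2 days compared, with DESeq2, without each library in turn and, chosen after seeing the data, with counts of all transcript biotypes summed. Requiring an absolute log2 fold change above 1 left 6 higher and 4 lower on day 1, 1 and 1 on day 2, and 0 and 0 on days 4, 6, 8 and 10. With plain library totals, 18 members were higher on day 4 and 25 other lysosome genes on day 2 (9 and 16 with TMM factors). Between days 6 and 8, 2 members changed, but 1 with only those libraries, 3 with DESeq2 and 3 with biotypes summed, and 0 to 2 without each library, with 0 without day 8 replicate 4 and 1 without day 6 replicates 2, 3 or 5 or day 8 replicates 1 or 3. Between days 8 and 10 it was 2 to 5 (4 with all), with 2 without day 8 replicate 2. The 12 members lower on day 10 were 8 with plain library totals and 8 to 11 without each library.

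Between day 0 and each later day, 1 to 3 of 5 libraries correlated best with their own number. With correlations so weak, this check cannot decide whether a number marks the same subculture on each day. With the replicate block, day 1 kept 24 members higher and 8 lower. Of 222 comparisons of members with day 0, those of CTSL included, 221 stayed on the same side of the threshold. The exception was GLB1 on day 10 (-0.18, Q = 0.051). In no alternative did a called change reverse. ATP6AP2 on day 1, not called, went from -0.12 to 0.18 with biotypes summed.

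Of the called member changes, 30 of 32 on day 1, 25 of 28 on day 2, 13 of 18 on day 4, 14 of 14 on day 6, 15 of 18 on day 8 and 13 of 18 on day 10 kept their call throughout. Calls lost by leaving out 1 library, with the log2 fold change and Q then found, were the following. LAMP2 on day 1 (0.10 to 0.12, Q 0.0528 to 0.115) was lost without day 0 replicate 1, 2, 3 or 5 or day 1 replicate 3, 4 or 5. LAMTOR1 on day 2 (0.21 to 0.24, 0.0566 to 0.0971) was lost without day 0 replicate 1, 4 or 5 or day 2 replicate 1 or 2. ATP6V1G1 on day 4 (-0.18, 0.0536) was lost without day 0 replicate 2, and on day 8 (-0.18 to -0.16, 0.0558 to 0.0967) without day 0 replicate 2 or 4 or day 8 replicate 1 or 4. CTSB on day 4 (0.15 to 0.17, 0.0691 to 0.0971) was lost without day 0 replicate 3 or day 4 replicate 3 or 4, and on day 8 (0.15 and 0.18, 0.0743 and 0.0535) without day 8 replicate 2 or day 0 replicate 3. ATP6V0E1 on day 8 (-0.18 to -0.13, 0.0616 to 0.158) was lost without day 0 replicate 1, 2 or 4 or day 8 replicate 1, 3 or 4.

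On day 10, CTSA (0.20, 0.053) was lost without day 10 replicate 2, and ATP6V0A2 (-0.37 to -0.34, 0.0617 to 0.0861) without day 0 replicate 1, 3 or 4 or day 10 replicate 2, 3 or 5. GLB1 (-0.18 to -0.13, 0.0661 to 0.199) was lost without day 0 replicate 1, 2, 4 or 5 or day 10 replicate 1, 4 or 5, NPC2 (-0.16 to -0.14, 0.0535 to 0.0964) without day 0 replicate 1, 2 or 4 or day 10 replicate 1 or 5, and TPP1 (-0.18 to -0.13, 0.0639 to 0.19) without day 0 replicate 1, 2, 4 or 5 or day 10 replicate 3, 4 or 5. The cause of these losses was not tested.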
